A study of Homo sapiens with 18 samples.

Results

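The genes described here are 10 receptors and signalling proteins that place B cells within lymphoid tissue and hold them in the germinal centre or let them leave it: CCR7, CXCR4, CXCR5, CCR6, GPR183, S1PR1, S1PR2, P2RY8, GNA13 and CD69. They were chosen by name for these roles, and all 10 are among the 23250 gene symbols listed for every library. RNA-seq libraries came from 3 established human lines of diffuse large B cell lymphoma, SUDHL6, Farage and SUDHL4. In each line, 3 libraries of cells given 79-6.1085 at 10 µM for 12 h were set against 3 libraries of cells given DMSO, the vehicle, for 12 h. The compound is an inhibitor of BCL6, a transcriptional repressor that germinal centre B cells depend on, and the question was what it does to these transcripts in each line. The libraries are of cultured lymphoma cells, so they measure transcripts and not movement or position.

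As background, B cells find their place by reading gradients of chemokines and lipids through receptors coupled to G proteins. CXCR5 reads CXCL13 of the follicle, CXCR4 reads CXCL12 and marks the dark zone of the germinal centre, CCR7 reads CCL19 and CCL21 of the T cell zone, and CCR6 reads CCL20. GPR183 reads oxysterols and draws activated B cells to the outer follicle, so its loss from the cell goes with entry into the germinal centre. S1PR1 drives exit along sphingosine 1-phosphate (S1P), and CD69 binds S1PR1 and takes it off the surface. S1PR2 and P2RY8, coupled to the G protein GNA13, hold germinal centre B cells in place and restrain their growth, and this arm is often mutated in lymphomas of germinal centre origin.

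Levels are in CPM (reads of a gene scaled to a common library total), as deposited, and changes are log2 fold changes of treated over DMSO libraries on log2(CPM + 1), with the SE of 1 limma model over all 18 libraries. The SE pools the spread within all 6 groups, so a gene has the same SE in each line, however much that line's libraries differ. The added 1 makes the change of a gene at a few CPM smaller than its CPM ratio. Calls rest on an adjusted p (Benjamini-Hochberg) below 0.05 over the 12769 genes with at least 1 CPM in at least 3 of the 18 libraries, among them 9 of the 10 genes. Depth in listed genes came to 6.29 to 17.35 M reads in treated SUDHL6 libraries, against 7.36 to 20.6 M reads in its DMSO libraries. In Farage they were 20.22 to 23.35 M reads with the compound and 21.83 to 24.1 M reads with DMSO. SUDHL4 had 16.87 to 22.55 M reads with the compound and 22.1 to 25.49 M reads with DMSO. Both SUDHL6 libraries numbered 3 were the shallow ones, where 3 reads come to 0.362 CPM with 79-6.1085 and 0.321 CPM with DMSO. Nothing in the labels ties a replicate to its own culture, so the tests cover the differences among these libraries, which may be technical only.

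The B cell markers MS4A1, CD79A, CD79B, PAX5 and CD22 averaged well above 1 CPM in all 6 groups. MS4A1, the CD20 surface antigen, averaged 1094 ± 217.1 CPM with the compound and 2570 ± 135.9 CPM with DMSO in SUDHL6, 801.2 ± 23.49 against 1722 ± 75.04 CPM in Farage, and 2217 ± 60.16 against 3535 ± 120.7 CPM in SUDHL4 (SD, n = 3). PAX5, a B cell transcription factor, averaged 39.93 CPM with the compound and 177.8 CPM with DMSO in SUDHL6, 34.39 against 201 CPM in Farage, and 43.04 against 175.7 CPM in SUDHL4. These lower levels moved with the treatment in all 3 lines, and their part in the changes below was not tested; in bulk RNA, fewer cells with a transcript and less of it per cell cannot be told apart. All 9 germinal centre markers averaged at least 1 CPM in every group but treated Farage, where 8 did. BCL6, the target of the compound, averaged 255 CPM with it and 325.4 CPM with DMSO in SUDHL6, 211.1 against 204.8 CPM in Farage, and 233 against 497.2 CPM in SUDHL4. Of 7 T cell markers at most 1 averaged at least 1 CPM in any group. In treated SUDHL6 cells it was CD28, at 20.11 CPM against 0.7612 CPM with DMSO, while CD3D and CD3E were at 0 in all 6 SUDHL6 libraries. Of 6 myeloid markers at most 1 reached that level, with sums of at most 2.848 CPM with the compound and 1.072 CPM with DMSO. It was CD14, which was called higher in all 3 lines, at 1.878 CPM with the compound against 0.2155 CPM with DMSO in SUDHL6, 1.885 against 0.1509 CPM in Farage and 1.535 against 0.1597 CPM in SUDHL4, and its part in the changes was not tested. CD14 passed the filter only through treated libraries and so could only come out higher. Of 7 stromal and endothelial markers at most 2 reached 1 CPM, in SUDHL4, led by DCN at 18.71 CPM with the compound and 62.27 CPM with DMSO.

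Most genes tested were called, so a call alone sets none of these genes apart. In SUDHL6, 7 of the 9 tested genes were called, 4 higher and 3 lower, where 68.1% of all genes tested were called, 26.8% higher and 41.3% lower. In Farage 5 were called, 4 higher and 1 lower, against 71.9% of all genes, 25.4% higher and 46.5% lower. In SUDHL4 6 were called, 4 higher and 2 lower, against 70.5% of all genes, 24.3% higher and 46.2% lower. Averaged over the lines, 8 passed, 5 upward and 3 downward, against 83.9% of all genes, 30.1% upward and 53.8% downward. A call in that mean does not show that the lines moved alike: GNA13, among the 5, was called higher in Farage only and lower in SUDHL6. The genes' median log2 change was 0.41 in SUDHL6, -0.03 in Farage, 0.02 in SUDHL4 and 0.23 in the mean, where the median of all genes tested was -0.13, -0.22, -0.21 and -0.24. When the libraries were rescaled by median-of-ratios size factors, the medians of all genes were 0.00, -0.04, 0.00 and -0.05, and 5 of the 9 genes were then higher and 2 lower in the mean of lines. The shares of all genes above are those of CPM as deposited, and none is given after that rescaling. Small falls in CPM are therefore given beside the shift in the median of all genes. Only CCR7, CXCR4 and CD69 were called in the same direction in all 3 lines. Of these, CD69 passed the filter through treated libraries, as its own account gives.

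**Figure D1:**
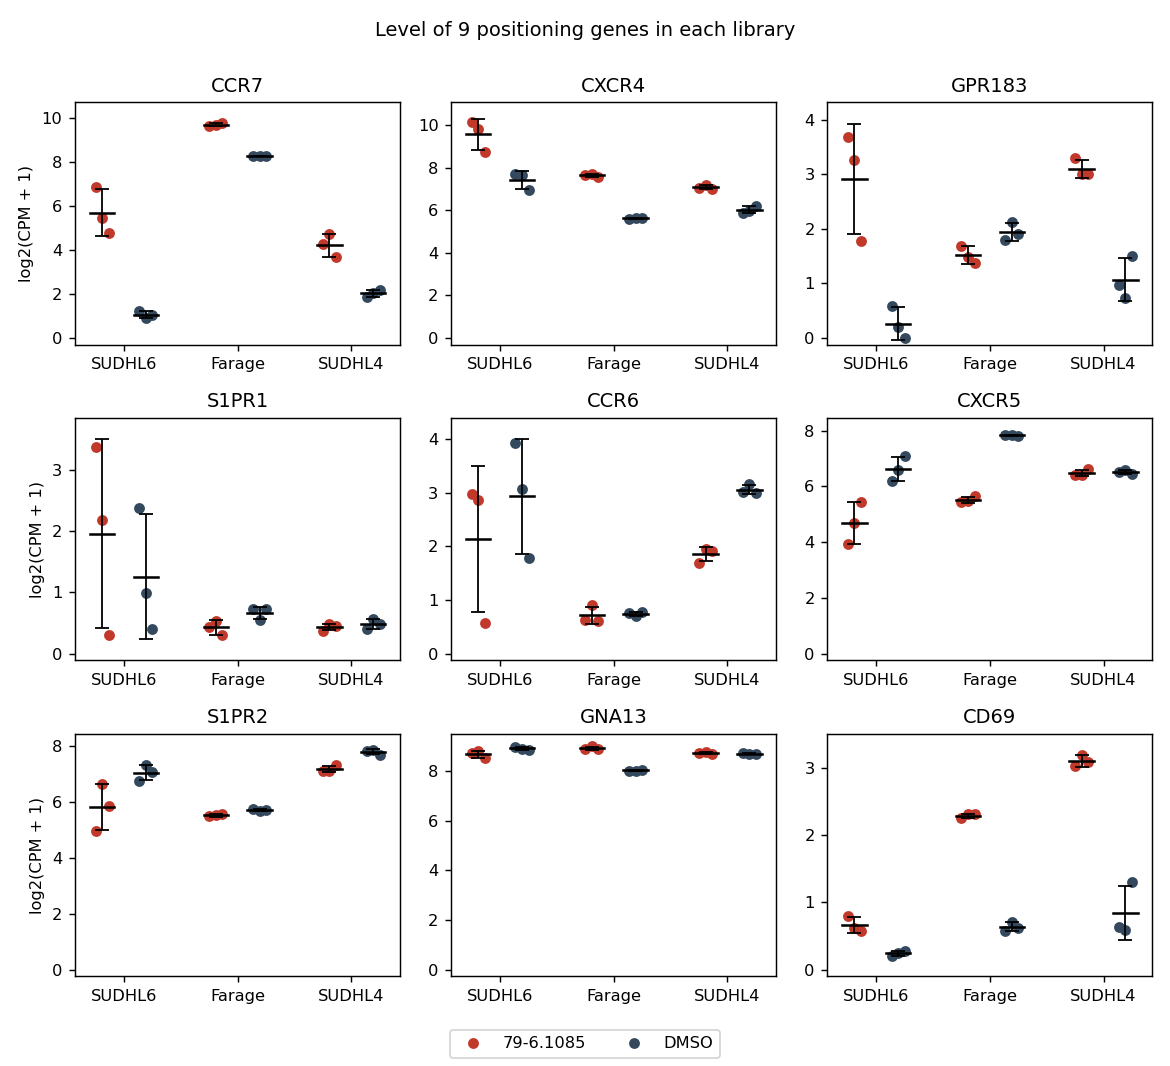
Level of the 9 measured positioning genes in each library, as log2(CPM + 1), with 79-6.1085 libraries (red) left of DMSO libraries (dark) in each line. Points are the 3 libraries of a group and bars their mean and SD; the treated libraries lie above the DMSO libraries of their line for CCR7, CXCR4 and CD69 in all 3 lines, and below them for CXCR5 in SUDHL6 and Farage.

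**Figure D2:**
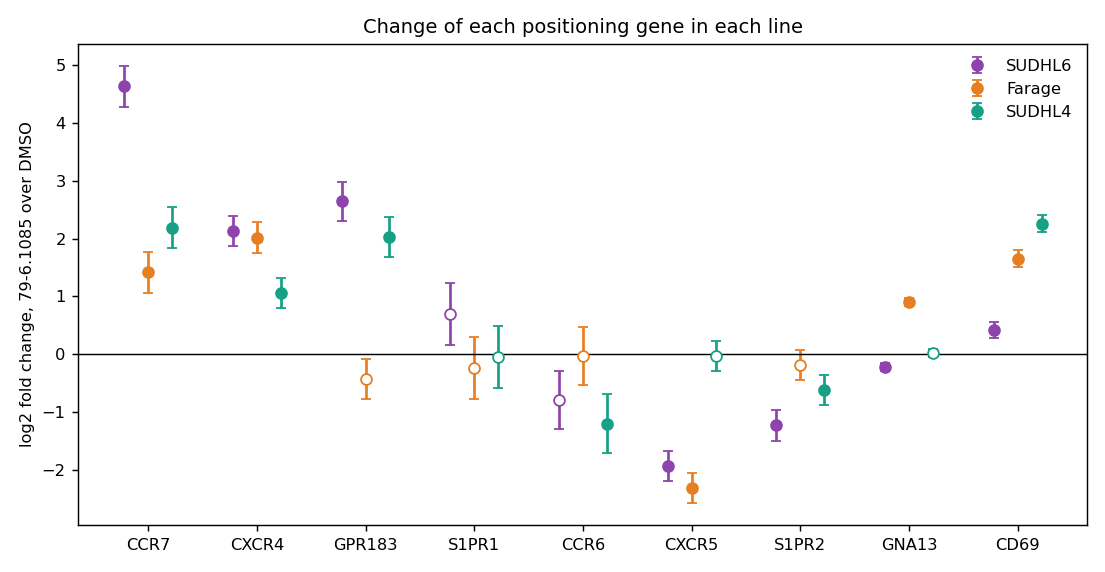
Log2 fold change of each gene, 79-6.1085 over DMSO, with the SE of the model, in SUDHL6 (purple), Farage (orange) and SUDHL4 (green). Filled points passed an adjusted p of 0.05 and open points did not; CCR7 in SUDHL6 has the largest change at 4.63, and CXCR5 and GPR183 changed in 2 of the 3 lines.

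The sequences before the start sites of 5 of these genes are shown because the genes moved in opposite directions, CXCR4 and GPR183 higher and CXCR5, CCR6 and S1PR2 lower, in at least 1 line. They are from RefSeq on GRCh38.p14, written 5′ to 3′ on the gene's strand, and end at or shortly before the start; bases that GENCODE places in an exon are left out. The table holds 8 of the 10 genes, not CCR7 and CD69. Capitals mark matches, on either strand, to the core shared by STAT factors and BCL6 (TTCNNNGAA), the AP-1 site (TGANTCA), the NRF2 core (TGACNNNGC), the forkhead site (GTAAACA) and the cAMP response element (TGACGTCA), which was added after the S1PR2 sequence was seen. Matches to different motifs may overlap, and where the table has several starts for a gene (CXCR4 and CCR6) the first listed is shown.
CXCR4, chr2:136118166-136118399, minus strand: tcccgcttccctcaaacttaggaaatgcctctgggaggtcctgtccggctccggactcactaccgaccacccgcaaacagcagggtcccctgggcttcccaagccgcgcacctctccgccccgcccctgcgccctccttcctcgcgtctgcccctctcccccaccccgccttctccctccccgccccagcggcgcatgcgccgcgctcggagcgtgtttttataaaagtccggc
GPR183, chr13:99307406-99307649, minus strand: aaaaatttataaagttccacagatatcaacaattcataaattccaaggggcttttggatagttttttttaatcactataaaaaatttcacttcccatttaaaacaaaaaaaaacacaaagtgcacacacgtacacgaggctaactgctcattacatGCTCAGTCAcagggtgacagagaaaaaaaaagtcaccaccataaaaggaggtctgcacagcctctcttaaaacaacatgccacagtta
CXCR5, chr11:118893142-118893391, plus strand: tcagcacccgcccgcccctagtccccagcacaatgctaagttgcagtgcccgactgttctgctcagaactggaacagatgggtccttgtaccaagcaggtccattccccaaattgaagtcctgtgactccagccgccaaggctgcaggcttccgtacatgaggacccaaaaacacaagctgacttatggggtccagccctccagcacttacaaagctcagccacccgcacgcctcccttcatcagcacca
CCR6, chr6:167111545-167111794, plus strand: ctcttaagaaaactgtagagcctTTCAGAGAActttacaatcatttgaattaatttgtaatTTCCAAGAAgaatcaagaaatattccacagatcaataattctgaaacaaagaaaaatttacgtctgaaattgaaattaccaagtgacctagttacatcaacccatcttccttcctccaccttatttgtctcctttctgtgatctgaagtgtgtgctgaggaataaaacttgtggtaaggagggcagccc
S1PR2, chr19:10231332-10231581, minus strand: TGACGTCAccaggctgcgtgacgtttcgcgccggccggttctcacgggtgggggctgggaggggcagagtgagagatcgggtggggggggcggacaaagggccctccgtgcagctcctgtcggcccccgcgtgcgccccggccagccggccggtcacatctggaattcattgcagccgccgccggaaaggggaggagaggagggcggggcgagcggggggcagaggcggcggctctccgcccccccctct

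The CCR6 stretch holds 2 matches to the STAT and BCL6 core, which 6.56% of 34943 RefSeq windows of the 250 bases before a start hold at least once. The GPR183 stretch holds 1 match to the NRF2 core, found in 10.9% of windows, and the S1PR2 stretch 1 cAMP response element, found in 1.63%. No AP-1 site, found in 6.59% of windows, and no forkhead site, found in 2.98%, is in these 5 stretches, and the CXCR4 and CXCR5 stretches hold none of the 5 motifs. Among the starts not shown, the CXCR4 window at chr2:136117870-136118119 holds 2 matches to the NRF2 core. The CCR6 window at chr6:167122503-167122752 holds 1 match to the STAT and BCL6 core, and the remaining CXCR4 and CCR6 windows hold none. A match describes letters and is no measure of binding.

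CCR7, the receptor for the T cell zone chemokines, rose in all 3 lines. In SUDHL6 it had 115, 43.0 and 25.7 CPM in the treated libraries, against 1.31, 0.868 and 1.07 CPM with DMSO. The treated libraries all lay far above the DMSO ones but spread among themselves, and the ratio of means was 56.65, or 31.73 without the treated library numbered 1. Farage had 780, 814 and 853 CPM with the compound, against 301, 307 and 304 CPM with DMSO. SUDHL4 had 17.9, 25.1 and 11.8 CPM with the compound, against 2.66, 3.07 and 3.48 CPM with DMSO. The groups did not overlap in any line, and Farage with DMSO was already far above both other lines with the compound. The log2 changes were 4.63 in SUDHL6, 1.42 in Farage and 2.19 in SUDHL4 (SE 0.355, adjusted p 1.61e-08, 0.0019 and 3.66e-05).

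CXCR4, the CXCL12 receptor, also rose in all 3 lines. SUDHL6 had 1125, 906 and 419 CPM with 79-6.1085, against 205, 203 and 122 CPM with DMSO. Farage had 200, 208 and 189 CPM with the compound, against 47.5, 49.0 and 48.4 CPM with DMSO. SUDHL4 had 131, 145 and 128 CPM, against 58.2, 61.3 and 72.8 CPM with DMSO. Every treated library lay above every DMSO library of its line, and the SUDHL6 libraries numbered 3 were the lowest of both of its groups. The ratio of means was 4.62 in SUDHL6, 4.118 in Farage and 2.096 in SUDHL4. The log2 changes of 2.12, 2.02 and 1.06 (SE 0.26) had adjusted p-values of 2.11e-06, 3.09e-06 and 0.00159.

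GPR183, the oxysterol receptor, rose in SUDHL6 and SUDHL4 and not in Farage. SUDHL6 had 11.9, 8.57 and 2.42 CPM (277, 193 and 20 reads) in treated libraries, against 0.501, 0.151 and 0 CPM (13, 4 and 0 reads) with DMSO. SUDHL4 had 8.78, 7.05 and 6.99 CPM with the compound, against 0.949, 0.665 and 1.84 CPM with DMSO. In both lines the groups were apart, and the DMSO library of SUDHL4 numbered 3 was the highest of its group. Farage had 2.22, 1.81 and 1.58 CPM with the compound, against 2.47, 3.33 and 2.75 CPM with DMSO, so there the treated libraries were the lower ones. The log2 change was 2.65 in SUDHL6 (SE 0.341, adjusted p 3.84e-06), 2.03 in SUDHL4 (adjusted p 5.17e-05) and -0.43 in Farage (adjusted p 0.276). With only the Farage libraries in the model the fall in Farage was called, at an adjusted p of 0.00751, where the 27 alternatives ranged from 0.00751 to 0.526. GPR183 lies within the span of UBAC2 on the opposite strand in GENCODE. The strand setting of the counting is not given and exons of the pair were not compared, so their reads may be shared, which was not tested. UBAC2 averaged 41.23 CPM with the compound and 35.89 CPM with DMSO in SUDHL6, 81.34 against 94.11 CPM in SUDHL4, and 10.81 against 13.67 CPM in Farage, where it was lower in each treated library, as GPR183 was.

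S1PR1, the exit receptor, was under 1 CPM in Farage and SUDHL4 and passed the test in no line in the model of all libraries. SUDHL6 had 9.34, 3.51 and 0.242 CPM (217, 79 and 2 reads) with the compound, against 4.20, 0.982 and 0.321 CPM (109, 26 and 3 reads) with DMSO. The groups overlapped, and in both of them the library numbered 1 was the highest and that numbered 3 the lowest. Farage had 0.358, 0.452 and 0.235 CPM with the compound, against 0.650, 0.461 and 0.651 CPM with DMSO. SUDHL4 had 0.295, 0.392 and 0.370 CPM, against 0.328, 0.475 and 0.402 CPM with DMSO. These are 7 to 20 reads per library in Farage and 8 to 15 in SUDHL4, and the treated Farage libraries all lay below the DMSO ones, while the SUDHL4 groups overlapped. The log2 changes were 0.70, -0.24 and -0.05 in SUDHL6, Farage and SUDHL4 (SE 0.538, adjusted p 0.267, 0.717 and 0.951). With only the Farage libraries in the model the Farage value was called lower at an adjusted p of 0.0231 (27 alternatives, 0.0231 to 0.827).

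CD69, the surface partner that removes S1PR1, rose in all 3 lines from low levels. It reached 1 CPM only in the treated Farage and SUDHL4 libraries and in the SUDHL4 DMSO library numbered 3. CD69 thus passed the filter through the groups where it is high, which limits what its calls in those lines show. SUDHL4 had 7.12, 8.12 and 7.54 CPM with the compound, against 0.547, 0.507 and 1.47 CPM with DMSO. Farage had 3.78, 3.95 and 3.96 CPM, against 0.488, 0.638 and 0.542 CPM with DMSO. The groups were well apart in both lines, and the SUDHL4 DMSO library numbered 3 was again the highest of its group. SUDHL6 had 0.731, 0.533 and 0.483 CPM with the compound, against 0.154, 0.189 and 0.214 CPM with DMSO, which is 17, 12 and 4 reads against 4, 5 and 2 reads. The log2 changes were 2.26 in SUDHL4, 1.66 in Farage and 0.41 in SUDHL6 (SE 0.141, adjusted p 1.01e-09, 3e-08 and 0.0158). Without the treated SUDHL6 library numbered 1 the SUDHL6 change was 0.35 and its adjusted p 0.0615, where the 27 alternatives ranged from 0.00037 to 0.0615.

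CXCR5, the receptor for the follicle chemokine CXCL13, fell in SUDHL6 and Farage. Farage had 42.0, 43.7 and 48.9 CPM with the compound, against 230, 227 and 224 CPM with DMSO. SUDHL6 had 14.4, 25.0 and 42.5 CPM with the compound, against 72.9, 95.5 and 134 CPM with DMSO. The groups did not overlap in these lines, and in SUDHL6 the order of the library numbers was the same in both groups. SUDHL4 had 85, 84 and 96.7 CPM with the compound, against 91.5, 95.2 and 85.3 CPM with DMSO, and the groups overlapped. The log2 changes were -1.93 in SUDHL6, -2.32 in Farage and -0.04 in SUDHL4 (SE 0.26, adjusted p 6.1e-06, 6.86e-07 and 0.925). BCL9L overlaps CXCR5 on the opposite strand in GENCODE and averaged 4.662 CPM with the compound against 8.91 CPM with DMSO in SUDHL6, 8.957 against 33.17 CPM in Farage, and 5.73 against 13.72 CPM in SUDHL4.

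CCR6, the CCL20 receptor, had lower values with the compound in SUDHL4 and SUDHL6 and stayed under 1 CPM in all Farage libraries. SUDHL4 had 2.25, 2.85 and 2.78 CPM with the compound, against 7.12, 7.95 and 6.97 CPM with DMSO, with no overlap. SUDHL6 had 6.88, 6.31 and 0.483 CPM, against 14.3, 7.40 and 2.46 CPM with DMSO. These groups overlapped, and the library numbered 3 was the lowest of each. Farage had 0.554, 0.866 and 0.536 CPM with the compound, against 0.683, 0.638 and 0.723 CPM with DMSO. CCR6 was called lower in SUDHL4 (-1.21, SE 0.51, adjusted p 0.0445) and in the mean of lines (-0.68, SE 0.294, adjusted p 0.0426), not in SUDHL6 (-0.79, adjusted p 0.181) or Farage (-0.03, adjusted p 0.965). The SUDHL4 call was lost in 17 of 27 alternatives, whose adjusted p-values ranged from 5.5e-06 to 0.104, and with only the SUDHL4 libraries in the model it was 5.33e-05. The call in the mean was lost in 21 of 26 alternatives (adjusted p 3.06e-05 to 0.174).

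S1PR2, the confinement receptor for S1P, fell in SUDHL6 and was lower in SUDHL4. SUDHL6 had 30.2, 98.0 and 56.7 CPM with the compound, against 108, 158 and 133 CPM with DMSO. SUDHL4 had 136, 138 and 157 CPM, against 224, 233 and 206 CPM with DMSO. Farage had 43.6, 44.7 and 46.5 CPM, against 52.2, 50.1 and 51.0 CPM with DMSO. All treated libraries lay below all DMSO libraries of their line. The log2 changes were -1.23 in SUDHL6, -0.62 in SUDHL4 and -0.18 in Farage (SE 0.261, adjusted p 0.000525, 0.0448 and 0.553). The SUDHL4 call was lost in 17 of 28 alternatives (adjusted p 0.000304 to 0.263), with a change of -0.32 and an adjusted p of 0.256 after median-of-ratios scaling. With only its own libraries in the model the SUDHL6 call missed the threshold at 0.0582 (28 alternatives, 1.68e-06 to 0.0582), and the Farage value was called lower at 0.00383 (28 alternatives, 0.00383 to 0.848). In GENCODE S1PR2 overlaps DNMT1 on the same strand, so their reads may be shared. DNMT1 averaged 250.3 CPM with the compound against 621.1 CPM with DMSO in SUDHL6, 187.5 against 407.5 CPM in SUDHL4 and 115.6 against 299.3 CPM in Farage, and its part in the S1PR2 values was not tested.

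GNA13, the G protein below S1PR2 and P2RY8, rose in Farage, while its calls in the other two lines depended on the scaling. Farage had 475, 509 and 469 CPM with the compound, against 258, 255 and 267 CPM with DMSO. SUDHL6 had 423, 446 and 369 CPM, against 505, 479 and 461 CPM with DMSO. SUDHL4 had 421, 433 and 414 CPM, against 422, 407 and 418 CPM with DMSO. The Farage groups were far apart, the SUDHL6 groups apart by a small margin, and the SUDHL4 groups overlapped. The log2 changes were 0.90 in Farage, -0.23 in SUDHL6 and 0.02 in SUDHL4 (SE 0.0697, adjusted p 1.1e-08, 0.00865 and 0.803). The mean of lines was called higher (0.23, SE 0.0402, adjusted p 5.09e-05), though only Farage was called higher by line. The fall in SUDHL6 was -0.05 with an adjusted p of 0.592 after median-of-ratios scaling (28 alternatives, 0.00185 to 0.834), and without its treated library numbered 3 the adjusted p was 0.0531. In SUDHL4 that scaling gave a rise of 0.32 with an adjusted p of 0.00105 (28 alternatives, 1.42e-05 to 0.973).

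P2RY8, the other confinement receptor, is listed at 0 in all 18 libraries. It lies in a region shared by the X and Y chromosomes, where a read matches both copies. Of 18 protein-coding genes that GENCODE places on both, 13 are listed at 0 in all 18 libraries, and no gene of the 18 has more than 3 reads over all of them together. They include genes that nearly every cell uses, such as SLC25A6, so the 0 of P2RY8 is no measure of its expression and it was not tested.

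In SUDHL6 the libraries with the same number deviated together: over all genes tested, deviations from the group means correlated at 0.425, 0.488 and 0.632 between same-numbered treated and DMSO libraries. With the replicate number as a block, 2 more genes passed in SUDHL6. CCR6 was called lower (-0.79, adjusted p 0.00102) and was lower with the compound in each pair. S1PR1 was called higher (0.70, adjusted p 0.00611), with 9.34 against 4.20 CPM and 3.51 against 0.982 CPM in the first 2 pairs but 0.242 against 0.321 CPM in the pair numbered 3. Without both libraries numbered 3, CCR6 was also called (-0.58, adjusted p 0.017), as was S1PR1 (1.09, adjusted p 0.0116), whose value was -0.01 without the treated library numbered 1. Over 27 alternatives each, the adjusted p ranged from 0.00102 to 1.0 for CCR6 and from 0.003 to 0.999 for S1PR1.

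**Figure D3:**
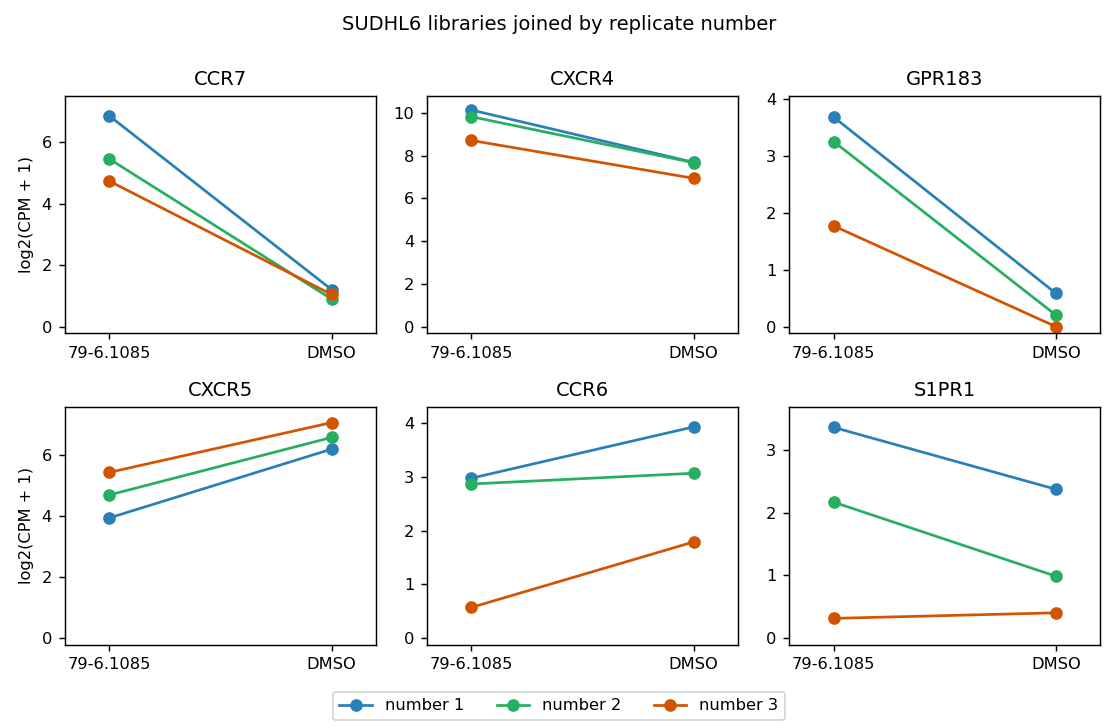
Level of 6 genes in the SUDHL6 libraries as log2(CPM + 1), with 79-6.1085 on the left and DMSO on the right and same-numbered libraries joined. Levels differ between numbers as well as between treatments; CCR6 is lower with the compound in each pair, while S1PR1 is higher in pairs 1 and 2 and not in pair 3.

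The size of the response was then compared between lines. Between SUDHL6 and Farage 5 of the 9 genes differed, where 36.8% of all genes tested did. CCR7 and GPR183 responded more strongly in SUDHL6, by 3.21 (SE 0.502, adjusted p 0.000121) and 3.07 (SE 0.482, adjusted p 0.000126) on the log2 scale. CD69 rose less in SUDHL6 (-1.24, SE 0.199, adjusted p 0.000154), GNA13 moved by -1.12 relative to Farage (SE 0.0986, adjusted p 3.56e-07), and S1PR2 by -1.05 (SE 0.37, adjusted p 0.035). The S1PR2 difference was lost in 11 of 28 alternatives (adjusted p 0.000374 to 0.092). The replicate block called 7 genes, adding CCR6 and S1PR1. The share of all genes called with the block is not given, for this count or the block counts below. Between SUDHL4 and Farage 4 genes differed, against 37.4% of all genes. GPR183 differed by 2.46 (SE 0.482, adjusted p 0.000794) and CXCR5 by 2.28 (SE 0.368, adjusted p 0.000142). CD69 differed by 0.60 (SE 0.199, adjusted p 0.0253) and GNA13 by -0.87 (SE 0.0986, adjusted p 4.03e-06). CXCR4 just missed the threshold (-0.96, SE 0.367, adjusted p 0.0504), and the replicate block called 6 genes, adding CXCR4 and CCR6.

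Between SUDHL6 and SUDHL4 4 genes differed, where 35.0% of all genes did. CCR7 rose more in SUDHL6 by 2.45 (SE 0.502, adjusted p 0.00141) and CXCR4 by 1.06 (SE 0.367, adjusted p 0.0335). CXCR5 fell more in SUDHL6, by -1.90 (SE 0.368, adjusted p 0.000906), and CD69 rose less, by -1.85 (SE 0.199, adjusted p 5.22e-06). The CXCR4 difference was lost in 10 of 28 alternatives (adjusted p 1.22e-05 to 0.106). None of the 3 CD69 differences was called by edgeR or DESeq2. Over 27 alternatives each the adjusted p reached 0.241 between SUDHL6 and Farage, 0.518 between SUDHL4 and Farage and 0.0978 between SUDHL6 and SUDHL4. With the replicate block 7 genes were called between SUDHL6 and SUDHL4, adding GNA13, S1PR1 and S1PR2. The rise of CXCR4 did not differ detectably between SUDHL6 and Farage (0.11, SE 0.367, adjusted p 0.849), nor did the fall of CXCR5 (0.39, SE 0.368, adjusted p 0.442). These 3 comparisons share each line's libraries and are not independent.

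The lines also differed before treatment. In DMSO libraries 8 of the 9 genes differed between SUDHL6 and Farage, where 71.3% of all genes tested did. Between SUDHL4 and Farage 6 differed, against 67.1% of all genes, and between SUDHL6 and SUDHL4 6 differed, against 68.6%. CCR7 was highest in Farage (log2 difference -7.20 for SUDHL6 and -6.23 for SUDHL4), and lower in SUDHL6 than in SUDHL4 (-0.97, SE 0.355, adjusted p 0.0234), a call lost in 4 of 27 alternatives (0.000432 to 0.0753). CXCR5 was highest in Farage too, while SUDHL6 and SUDHL4 did not differ detectably (0.11, SE 0.26, adjusted p 0.73). GPR183 ran in the order Farage, SUDHL4, SUDHL6. The first step (-0.87, SE 0.341, adjusted p 0.0331) was lost in 5 of 26 alternatives (0.000164 to 0.124), and the last step (-0.81, SE 0.341, adjusted p 0.0458) was lost in 17 of 26 alternatives (adjusted p 0.000271 to 0.185).

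CXCR4 was highest in SUDHL6. SUDHL4 lay above Farage in each library, but the difference was not called (0.39, SE 0.26, adjusted p 0.192), except in 3 of 27 alternatives (0.00021 to 0.393), among them the model of only those lines. CCR6 was lowest in Farage, and the SUDHL6 and SUDHL4 libraries overlapped (-0.13, SE 0.51, adjusted p 0.844). S1PR2 ran in the order SUDHL4, SUDHL6, Farage, and GNA13 in the order SUDHL6, SUDHL4, Farage, with each neighbouring pair called. The steps between SUDHL6 and SUDHL4 were small: -0.75 for S1PR2 (SE 0.261, adjusted p 0.0183), lost in 3 of 27 alternatives (0.000384 to 0.0803), and 0.21 for GNA13 (SE 0.0697, adjusted p 0.0134), lost in 4 of 27 (0.00236 to 0.433). CD69 was lowest in SUDHL6, where the difference from Farage (-0.39, SE 0.141, adjusted p 0.0204) was lost in 2 of 26 alternatives (0.000539 to 0.0656), and SUDHL4 and Farage did not differ detectably (0.21, SE 0.141, adjusted p 0.209). For S1PR1 no pair of lines passed the test.

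Across the 18 libraries, which share lines and treatments, the 9 genes did not move as 1 block. The largest Pearson correlations of log2(CPM + 1) were negative, at -0.905 between CXCR4 and CXCR5 and -0.853 between CCR7 and S1PR2. Positive ones reached 0.65 between CXCR4 and S1PR1 and 0.631 between CCR6 and S1PR2. Among 9551 other genes, the closest in pattern were PAPD4 (0.9878) and FYN (0.9833) for CCR7, XBP1 (0.9757) and PARP6 (0.9691) for CXCR4, and BNIP3L (0.9866) and NUPL1 (0.9815) for CD69. CXCR5 was nearest to HNRNPH3 (0.9352) and ESYT1 (0.9328), S1PR2 to SNX10 (0.9498) and UBE2O (0.9493), and GPR183 to N4BP2L2 (0.9353) and SCFD1 (0.9302). CCR6 was nearest to PDZRN3 (0.9313) and GIT1 (0.9061), and GNA13 to PRDM10 (0.8911) and LZIC (0.8745). S1PR1 had no gene above 0.8429, the value for IRF2BP1, followed by GOPC at 0.7955. These are descriptions over 18 libraries in 6 groups, with differences between lines among them.

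Genes around these receptors were taken from lists of ligands, signalling partners and zone markers; changes given for them in a line passed the test there unless said otherwise. Of 5 ligands only CXCL13 was tested, which the CXCR5 receptor reads; in Farage it averaged 1.863 CPM with the compound and 5.663 CPM with DMSO (-1.22, SE 0.0831, adjusted p 2.58e-09), and it was at or near 0 in the other two lines. Of 16 other chemokine receptors 2 were tested. The scavenging receptor ACKR3 (listed as CXCR7) fell in Farage to 13.04 CPM against 42.36 CPM with DMSO. CXCR3, a receptor for interferon-induced chemokines, had 0.05769 CPM with the compound and 1.304 CPM with DMSO in Farage; it passed the filter only through those DMSO libraries and so could only come out lower. Neither averaged 1 CPM in SUDHL6 or SUDHL4.

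Of 13 genes of S1P reception, metabolism and transport 9 were tested, and 7 rose and 1 fell in the mean of lines, with a median of 0.42. Over all genes tested, 30.1% rose and 53.8% fell in that mean, which is the share to read every main count of these lists against. Those shares hold for CPM as deposited, and none is given for the counts after median-of-ratios scaling. SPNS2, an S1P exporter, averaged 23.19 CPM with the compound against 4.523 CPM with DMSO in SUDHL6 (2.12, SE 0.183) and 2.512 against 0.7057 CPM in SUDHL4 (1.04). SGPP1, a phosphatase of S1P, rose in all 3 lines by 1.15, 0.61 and 1.41 in SUDHL6, Farage and SUDHL4 (SE 0.186). PLPP3 (listed as PPAP2B), a lipid phosphatase, rose to 8.907 CPM in treated SUDHL4 cells against 1.531 CPM with DMSO. The single fall was S1PR4, a further S1P receptor, at 2.739 CPM with the compound against 13.75 CPM with DMSO in Farage, the only line of the 3 where it averaged 1 CPM. PLPP1 (listed as PPAP2A) rose in SUDHL6 and Farage by 1.30 and 0.56 and fell in SUDHL4 by 0.46, a fall that DESeq2 did not call. SGPP2 fell by 0.54 in SUDHL6, at under 1 CPM, and rose by 0.41 in Farage. Of the 4 enzymes that make or clear the GPR183 ligand only HSD3B7 was tested (mean of lines -0.25, SE 0.101, adjusted p 0.029), a call lost under median-of-ratios scaling. Of the 3 genes that make or export the P2RY8 ligand, GGT1 rose in SUDHL6 by 0.65 and fell in Farage and SUDHL4 by 1.03 and 0.63, while ABCC1 was lower in the mean of lines by -0.24 and at 0.00 after that scaling. In SUDHL6 GGT1 averaged only 1.094 CPM with the compound and 0.3231 CPM with DMSO.

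On the motility side, 3 of 19 genes that carry Gαi signals rose and 11 fell in the mean of lines, where 53.8% of all genes fell. DOCK2, the Rac exchange factor of lymphocyte migration, fell by -1.54, -1.14 and -1.25 in SUDHL6, Farage and SUDHL4 (SE 0.0902). CORO1A, an actin regulator, fell by -1.34, -1.82 and -1.46 (SE 0.137), GNG2 by -1.98, -1.28 and -1.51 (SE 0.16), and WAS by -1.01, -1.42 and -1.04 (SE 0.13). With median-of-ratios scaling 6 of this list rose and 10 fell, so the balance depends on the scaling while the calls of those 4 genes did not change under any scaling run. PREX1 fell in Farage by 1.13, at 91.49 CPM with the compound against 200.8 CPM with DMSO, and was under 1 CPM in the other two lines.

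Of 15 tested genes that turn receptors off, 2 rose and 12 fell in the mean of lines, against 30.1% higher and 53.8% lower over all genes. After median-of-ratios scaling 2 rose and 9 fell. The 2 that rose were RGS1 and RGS2, which shorten G protein signals. RGS1 averaged 237.4 CPM with the compound against 7.347 CPM with DMSO in SUDHL6, 1829 against 389.5 CPM in Farage and 144.1 against 8.857 CPM in SUDHL4 (4.71, 2.23 and 4.19, SE 0.443). RGS2 rose by 1.83, 2.19 and 2.03 (SE 0.159). RGS14 fell by -2.21, -2.55 and -2.17 (SE 0.219), and the receptor kinase GRK6 by -1.03, -1.43 and -1.75 (SE 0.136). RGS16 rose in Farage by 0.62 and fell in SUDHL4 by 1.26, and ARRB2, an arrestin, rose in Farage by 0.44 and fell in SUDHL6 by 1.19 and in SUDHL4 by 0.58 (SE 0.15), where the SUDHL4 call was lost after that scaling. Other lipid and purine receptors of lymphocytes split 4 higher and 7 lower of 13 in the mean of lines, shares near the 30.1% and 53.8% of all genes. After that scaling 5 were higher and 7 lower. The leukotriene receptor LTB4R fell in all 3 lines by -1.05, -1.41 and -1.24 (SE 0.135). P2RY10 rose in SUDHL6 and SUDHL4 by 1.53 and 1.43 (SE 0.17), GPR132 fell in Farage and SUDHL4 by 1.38 and 0.78 (SE 0.101), and P2RY11 fell in the same 2 lines by 0.74 and 1.33 (SE 0.139).

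Adhesion and homing genes rose in 3 and fell in 10 of 16 cases in the mean of lines, near the 53.8% of all genes that fell. After median-of-ratios scaling 5 rose and 8 fell. The integrin chain ITGA4 fell by -1.58, -1.62 and -2.42 in SUDHL6, Farage and SUDHL4 (SE 0.157), its partner ITGB7 by -2.73, -2.14 and -2.11 (SE 0.393), ITGAL by -2.38, -1.12 and -1.52 (SE 0.315), and FERMT3, which activates integrins, by -1.20, -1.07 and -1.94 (SE 0.134). SELPLG, the selectin ligand, rose in SUDHL6 by 1.28 and fell in SUDHL4 by 0.76 (SE 0.206), and ICAM1 fell in SUDHL6 by 0.86 and rose in SUDHL4 by 0.69 (SE 0.176). CD44 fell in Farage by 0.42 and rose in SUDHL4 by 0.44 (SE 0.153), and the Farage call was lost under median-of-ratios scaling. ITGAM averaged at most 1.318 CPM in any group.

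Transcription factors tied to these genes rose in 6 and fell in 3 of 11 tested cases in the mean of lines, against 30.1% higher and 53.8% lower over all genes. KLF6 rose in SUDHL6, Farage and SUDHL4 by 1.28, 1.37 and 1.68 (SE 0.163) and KLF3 by 1.09, 1.41 and 0.45 (SE 0.133). In SUDHL4 KLF3 averaged only 0.6406 CPM with the compound and 0.2007 CPM with DMSO. NR4A1 rose in SUDHL6 and Farage by 1.18 and 2.36 (SE 0.144), and its value of -0.22 in SUDHL4 was not called (adjusted p 0.181). TCF3, a factor of the dark zone, fell by -1.28, -0.94 and -0.62 (SE 0.15). ID3, which binds TCF3, rose by 2.0 in Farage and fell by 0.72 in SUDHL6 and 1.43 in SUDHL4 (SE 0.213). KLF2, the activator of S1PR1, reached at most 1.168 CPM and was not tested. Dark zone genes fell in 8 of 10 cases and rose in 2 (7 and 2 after median-of-ratios scaling), with a median of -1.05. The DNA ligase LIG1 fell by -1.94, -1.69 and -2.20 (SE 0.166), the cyclin CCNB1 by -1.79, -2.01 and -1.61 (SE 0.265), and MME, the CD10 surface marker, by -1.0, -1.40 and -1.04 (SE 0.192). The 2 that rose in the mean of lines were BACH2 (1.66, SE 0.382, adjusted p 0.000716) and FOXO1 (0.40, SE 0.0841, adjusted p 0.0003). By line, BACH2 was called higher in Farage only, and FOXO1 in SUDHL6 and SUDHL4. BACH2, FOXO1 and TCF3 are in the transcription factor list as well, so these lists are not separate. Light zone genes fell in 8 and rose in 2 of 13 cases, near the 53.8% of all genes that fell, with a median of -0.66. After median-of-ratios scaling 7 fell and 3 rose. MYC fell by -1.45 in SUDHL6 and -3.78 in SUDHL4 (SE 0.0985), while its Farage value of -0.27 was -0.03 after median-of-ratios scaling. CD40 fell in all 3 lines by -1.68, -1.46 and -1.03 (SE 0.245), and CCND2 by -0.24, -1.10 and -1.12 (SE 0.1), where the SUDHL6 call was lost after that scaling. In SUDHL6 CCND2 averaged only 0.0546 CPM with the compound and 0.2486 CPM with DMSO. NFKBIA fell by 1.41 in Farage and by 0.44 in SUDHL4 (SE 0.104), where the SUDHL4 call was lost after that scaling. CD83 rose in Farage by 1.67 and fell in SUDHL4 by 0.55 (SE 0.148), and EGR1 rose in Farage by 1.11 and fell in SUDHL6 by 0.84 and in SUDHL4 by 1.68 (SE 0.22). CD86 rose in SUDHL6 and SUDHL4 by 1.25 and 0.70 and fell in Farage by 0.39 (SE 0.146), and EGR3 rose in Farage by 0.53 and fell in SUDHL4 by 0.34 (SE 0.126). The falls of CD83 and EGR3 in SUDHL4 and of CD86 in Farage were not called after median-of-ratios scaling. Both medians lay below the -0.24 of all genes, while CXCR4, often used as a dark zone marker, rose in the same libraries.

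**Figure D4:**
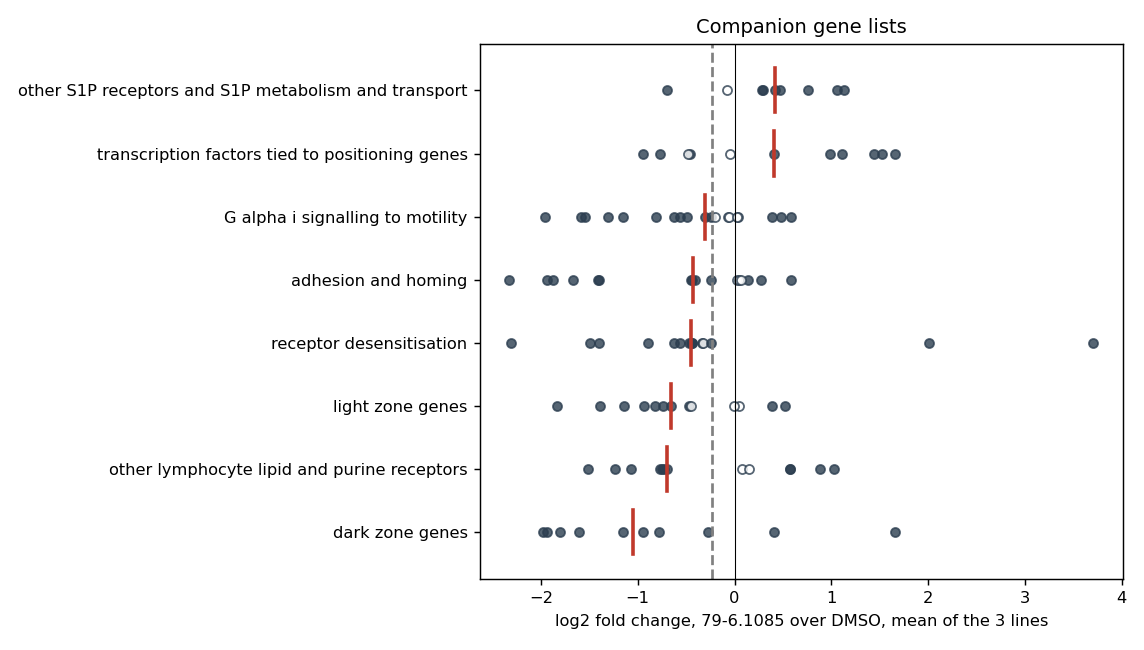
Log2 fold change, 79-6.1085 over DMSO, in the mean of the 3 lines for genes of 8 companion lists with at least 5 tested genes. Each point is a gene, filled where the adjusted p was below 0.05, red bars are list medians and the dashed line is the median of all genes tested (-0.24). S1P genes and transcription factors have medians above it and dark zone genes the lowest, at -1.05. BACH2, FOXO1 and TCF3 are in both the transcription factor and the dark zone list.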

How the data were processed

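Per the labels' protocols the RNA libraries used a TruSeq kit, and per the submitters' processing notes the aligner was STAR and the build hg19; the label of 1 library names Rsubread. The sources used here give no tool version, annotation release or strand setting. The authors deposited 1 CPM value (reads per gene relative to the library's total) per RefSeq gene symbol and library. Whole reads were recovered from the CPM steps, within a tolerance of 0.01 reads for 100% of values, and 74.63 to 80.72% of each library's divisor lay in listed genes. The CPM of 3 reads is given as a guide to counting error, and no floor on reads was set in the model.

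CPM as deposited were analysed as log2(CPM + 1) with limma 3.58.1 (R 4.3.3) with an intensity trend, in 1 model of 6 group means with 12 residual degrees of freedom, for genes at 1 CPM or more in 3 or more of 18 libraries, with Benjamini-Hochberg adjustment over 12769 genes. The code was tested on simulated data. Groups come from the labels. The 10 genes and the companion lists were chosen with earlier results of these data known. From each list up to 4 genes called in the mean of lines, smallest p first, are named, and any called in opposite directions in 2 lines. The 2 dark zone genes that rose in the mean are named as well. For each measured gene the 2 genes with the highest Pearson r over 18 libraries are named, at a mean CPM of at least 5.

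Alternatives were a pseudocount of 0.25, no filter, a mean CPM of at least 5, median-of-ratios and listed-gene scaling, edgeR 4.0.16 and DESeq2 1.42.0 on recovered reads, a replicate block, only the lines compared, leaving out libraries and a threshold of 0.01. Replicate numbers were taken to pair libraries in SUDHL6, from the data: same-numbered libraries deviated together there in all 3 pairs (r 0.425 to 0.632), but not in Farage (-0.189 to 0.168) or SUDHL4 (-0.073 to 0.034). Sequences are from RefSeq on GRCh38.p14; no coordinates on hg19 are given. A companion list and a B cell marker are not reported here.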

Additional observations from a re-analysis of the deposited data

Results flagged for a closer look

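The response to 79-6.1085 differed between lines for 13 pairings of a gene with a pair of lines, by the interaction term of the limma model. Of all genes tested, 36.8% differed between SUDHL6 and Farage, 37.4% between SUDHL4 and Farage and 35.0% between SUDHL6 and SUDHL4. The values are differences of log2 changes, and the lines' own levels are in the account of each gene. Between SUDHL6 and Farage the differences were 3.213 for CCR7, 3.071 for GPR183, -1.241 for CD69, -1.122 for GNA13 and -1.051 for S1PR2. Between SUDHL4 and Farage they were 2.456 for GPR183, 2.28 for CXCR5, -0.873 for GNA13 and 0.604 for CD69. Between SUDHL6 and SUDHL4 they were 2.446 for CCR7, -1.895 for CXCR5, -1.845 for CD69 and 1.064 for CXCR4. The differences of CCR7, GPR183, GNA13 and CXCR5 among these kept their calls in every alternative run, while those of CD69, S1PR2 and CXCR4 did not.

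No group had more than 3 libraries, so single libraries were not tested as outliers.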

How the results depend on the processing

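Of the alternative values for single genes, 2226 kept direction and call, 130 lost the call, 55 gained it and 33 changed sign. A mean CPM of at least 5 drops CCR6, GPR183, S1PR1 and CD69, so fewer genes were called: 3 in SUDHL4, 5 in the mean of lines, 3 and 2 for the responses of SUDHL6 and SUDHL4 minus Farage, and 5 for the DMSO level of SUDHL6 minus Farage. With only the lines compared, 8 were called in Farage, 8 for the response of SUDHL4 minus Farage (7265 of all genes, against 4775) and 3 for the DMSO level of SUDHL6 minus SUDHL4. At a threshold of 0.01, 2 were called for that level, and 2780 of all genes, against 4474, for the response of SUDHL6 minus SUDHL4. With the replicate block 7 genes, against 4, were called for that response and 9, against 7, in SUDHL6, and the calls in Farage, SUDHL4 and the mean were not changed by it. The numbers pair the libraries in SUDHL6 only, so calls gained with the block elsewhere use numbers not shown to pair libraries. DMSO levels have no block. Most of these counts have no share of all genes called in the same setting beside them, so they alone set none of these genes apart.

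With median-of-ratios scaling, edgeR and DESeq2 the log2 change turned to 0.068, 0.163 and 0.19 for CCR6 in Farage, 0.058, 0.056 and 0.069 for S1PR2 in Farage, 0.263, 0.288 and 0.277 for CXCR5 in SUDHL4, and 0.032, 0.123 and 0.118 for S1PR1 in SUDHL4. The DMSO level of SUDHL6 minus SUDHL4 turned to 0.063 with edgeR, 0.018 with DESeq2 and 0.442 without both SUDHL6 libraries numbered 3 for CCR6, and to -0.008 with median-of-ratios scaling and -0.117 without those libraries for CXCR5. Leaving out 1 library gave sign changes within these ranges: -0.013 to 1.515 for S1PR1 in SUDHL6, -0.122 to 0.019 for CCR6 in Farage, -0.099 to 0.002 for CXCR5 in SUDHL4, and -0.1 to 0.409 for S1PR1 in the mean. For responses they were -1.331 to 0.024 for CCR6 and -0.184 to 0.528 for CXCR4 in SUDHL6 minus Farage, and -0.157 to 1.198 for CCR6 in SUDHL6 minus SUDHL4. For DMSO levels they were -0.026 to 0.331 for CD69 in SUDHL4 minus Farage, and -0.628 to 0.442 for CCR6 and -0.117 to 0.32 for CXCR5 in SUDHL6 minus SUDHL4. The main values of all of these missed the threshold. Beyond the settings that drop genes or libraries, the cause was not tested. Low counts of S1PR1, CCR6, CD69 and GPR183 limit their precision, above all in the SUDHL6 libraries numbered 3.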
